A study of Saccharomyces cerevisiae with 72 samples.

Results

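The 53 genes described here encode the proteins that copy chromosomal DNA in budding yeast and that make its deoxynucleotides (dNTPs). They were taken by systematic name from a list of replication and dNTP genes, not by any measured value, and they are 53 of the 5424 genes with an SK1 coding region counted in the RNA-seq. By role they comprise 6 subunits of the origin recognition complex (ORC), 8 genes for loading the MCM helicase and its subunits, 11 for origin firing, 7 for polymerases and primase, 11 for the sliding clamp, its loader, RPA and the lagging strand, 4 for fork protection and 6 for dNTP synthesis. All were detected, and 53 of 53 passed the filter on low counts.

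The samples are diploid SK1 cells, a strain background that enters meiosis efficiently, in which copper drives *IME1* and *IME4*, the genes that start the meiotic program. The cells were moved to sporulation medium (SPO) and 50 µM CuSO4 was added after the 2 h collection, so that 0 h and 2 h are before copper and 3 h and 4 h after it. RNA-seq compared ume6 T99N-3V5 cells (strain UB22629, irt1::pCUP1-3HA-IME1 and pCUP-IME4::NAT) with wild-type UME6-3V5 cells (strain UB20649, pCUP1-3HA-IME1 and pCUP1-3HA-IME4), with 3 replicates at each of 0, 2, 3 and 4 h, or 24 libraries in all. Ume6 represses early meiotic genes until it binds Ime1, and the T99N change weakens that binding. The strains also differ in the *IME4* construct and in markers, which cannot be told apart from the effect of T99N. A further strain with untagged Ume6 (UB14584, pCUP-IME1::NAT and pCUP-IME4::NAT, with the *amn1* allele of BY4741) was sampled at 4 h and 2 h by RNA-seq in replicates 4 and 5 and by TL-seq, which reads the capped 5′ ends of transcripts, in replicates 1, 3 and 5 and again in 4 and 5. Ume6 was mapped by ChIP-seq in 3 replicates of UME6-3V5 cells (UB3301, with *IME1* and *IME4* under the CUP1 promoter) grown to saturation in BYTA, a premeiotic medium. The sources do not say that replicates were separate cultures, so p-values measure the spread between these libraries, which may be technical.

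Replication starts where ORC marks origins. Cdc6 and Tah11 (Cdt1) load the MCM2-7 helicase there, the kinase Cdc7-Dbf4 and the Sld proteins fire the origin with Cdc45 and GINS, and polymerases α, δ and ε then copy the strands behind the clamp PCNA. Ribonucleotide reductase supplies the dNTPs. In mitotic cells many of these genes are transcribed at the passage from G1 to S phase by MBF, which binds MCB elements, and SBF, which binds SCB elements. Premeiotic S phase uses the same machinery after *IME1* is on. *MCM5*, a helicase subunit, is the member with a LUTI, a long undecoded transcript isoform: a 5′-extended mRNA whose upstream reading frames keep it from being translated efficiently and whose synthesis runs over the gene's own promoter.

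The letters of these elements are shown first, because the members with and without them are set side by side further on. In the 300 bases before the start codon of each gene in the S288C R64 assembly of RefSeq, which is not the SK1 genome of the deposited files, the MCB letters ACGCGT on either strand were present in 23 of 53 members (43.4%) and in 209 of 6007 genes of all kinds (3.48%). The SCB letters CNCGAAA were present in 16 members (30.2%) and 875 genes (14.6%). The core letters of URS1, GGCGGC, the element that Ume6 binds, were present in 3 members (*ORC1*, *MCM4* and *MCM5*, 5.66%) and 313 genes (5.21%). MCB and SCB matches can overlap, as in *POL30*. The 30-base windows below hold matches in capitals, 5′ to 3′ on the gene's strand, from members that differ most in the RNA-seq, and from *MCM5*.
POL1 (chrXIV:429867-429896, plus strand, MCB): acatctattcaaACGCGTtaaaattttttt
POL1 (chrXIV:429902-429931, plus strand, MCB): cctataagtaaaACGCGTcgcgtgtatcca
CDC21 (chrXV:467730-467759, minus strand, MCB): taatatttggtgACGCGTtaaatagaaaaa
CDC21 (chrXV:467693-467722, minus strand, MCB): agaccttaattgACGCGTttcctgaaatat
POL2 (chrXIV:148085-148114, plus strand, MCB): agggtaaccagaACGCGTaagtttcttgca
POL30 (chrII:425944-425973, minus strand, SCB then MCB): ccaaaaCGCGAAACGCGTaacttttttttt
RNR1 (chrV:298696-298725, plus strand, SCB): tggcgtaggtagTTTCGTGtttgatagaaa
RNR2 (chrX:392157-392186, plus strand, SCB): tacccttggaaaCTCGAAAtgaacgaagca
RNR4 (chrVII:856399-856428, minus strand, SCB): aaaaggccttgtCTCGAAAcagaaagaaaa
MCM5 (chrXII:691420-691449, plus strand, SCB on both strands): gattacttgcagTTTCGCGAAAtctcgaag
MCM5 (chrXII:691301-691330, plus strand, URS1): agtttattctaaGCCGCCtatgccagcctt
The 2 MCB matches of *POL1* begin 208 and 173 bases before its start codon, and those of *CDC21* begin 158 and 121 bases before it. *RNR1*, *RNR2* and *RNR4* hold an SCB match but no MCB match. A match is a description of the letters in this window and not a measured site.

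The RNA-seq libraries held 5013206 to 10368419 counted reads in T99N cells and 9087102 to 20865934 in wild-type cells. Levels below are RPKM, the reads divided by the length of the coding sequence and by the size of the library, scaled by TMM. *IME1* had 1730, 68.8 and 84.3 RPKM in the T99N libraries at 2 h, against 102, 78.6 and 54.7 RPKM in the wild-type libraries, so that the library labelled T99N 2 h replicate 1 stood apart. *IME4* stood apart in it too, at 705 RPKM, against 41.3 and 48.7 RPKM in the other T99N libraries at 2 h. At 3 h, after copper, *IME1* had 1520, 3390 and 2690 RPKM in T99N cells and 642, 851 and 1220 RPKM in wild-type cells. *IME4* then had 610, 1440 and 979 RPKM in T99N cells and 177, 251 and 333 RPKM in wild-type cells. The part of these differences in the results at 3 h was not tested. Over all features with at least 20 reads in a pair of libraries, the chi-square of the counts per degree of freedom was 8.22 between the library labelled T99N 2 h replicate 1 and T99N 3 h replicate 1. It was 71.6 and 111 between the same library and its partners at 2 h, and 10.1 between those partners. The library thus went against its time label and was closest to T99N 3 h replicate 1, and whether the label is wrong or the culture met copper early cannot be told apart here. T99N 3 h replicate 1 was itself 63 and 88.5 from its own partners, which were 42.3 from each other. It was closer to T99N 2 h replicate 2 (48.5) and to T99N 4 h replicates 1 (52.7) and 2 (60.5) than to either partner. Its time label is thus uncertain too, and no comparison is given without T99N 3 h replicate 1 alone. Some wild-type libraries also stood off from their partners. The distances were 159 and 105 for 2 h replicate 2, whose partners were 31.5 apart, and 101 and 113 for 3 h replicate 3, whose partners were 27.6 apart. For 4 h replicate 3 they were 108 and 87.5, with partners 21.4 apart. These 3 were each closer to their partners than to wild-type libraries of other times. Counts of called members and fold changes of comparisons with the T99N 2 h group are given with and without the library labelled T99N 2 h replicate 1. Every other comparison in these 24 libraries shares the spread estimated with it, and is not given without that library alone. At 4 h *IME1* had 4910, 5380 and 5190 RPKM in T99N cells and 2670, 2320 and 3640 RPKM in wild-type cells. The T99N base change itself is not visible in these tables, but *UME6* had 205, 234 and 207 RPKM in T99N cells at 0 h and 49.4, 59.9 and 60.7 RPKM in wild-type cells, with no overlap. The summed level of 8 early meiotic genes, which include *IME2*, *HOP1* and *ZIP1*, was 768 to 879 RPKM in T99N cells at 4 h and 6180 to 6620 RPKM in wild-type cells at 4 h. The summed level of 4 middle sporulation genes stayed between 37 and 67.8 RPKM in all T99N libraries and between 36.7 and 95 RPKM in all wild-type libraries. These are bulk samples, so a change in the share of cells in a stage and a change in RNA per cell cannot be told apart.

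In wild-type cells the replication genes formed a peak at 3 h, the first hour after copper. The level summed over the 53 genes was 1810 to 2030 RPKM at 0 h, 2620 to 2680 at 2 h, 6510 to 7370 at 3 h and 2910 to 3120 at 4 h. The highest group mean was at 3 h for 46 of the 53 genes, a count that was not made over all features. For 40 of them every 3 h library lay above every other wild-type library, a pattern that 9.89% of all tested features showed.

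**Figure D1:**
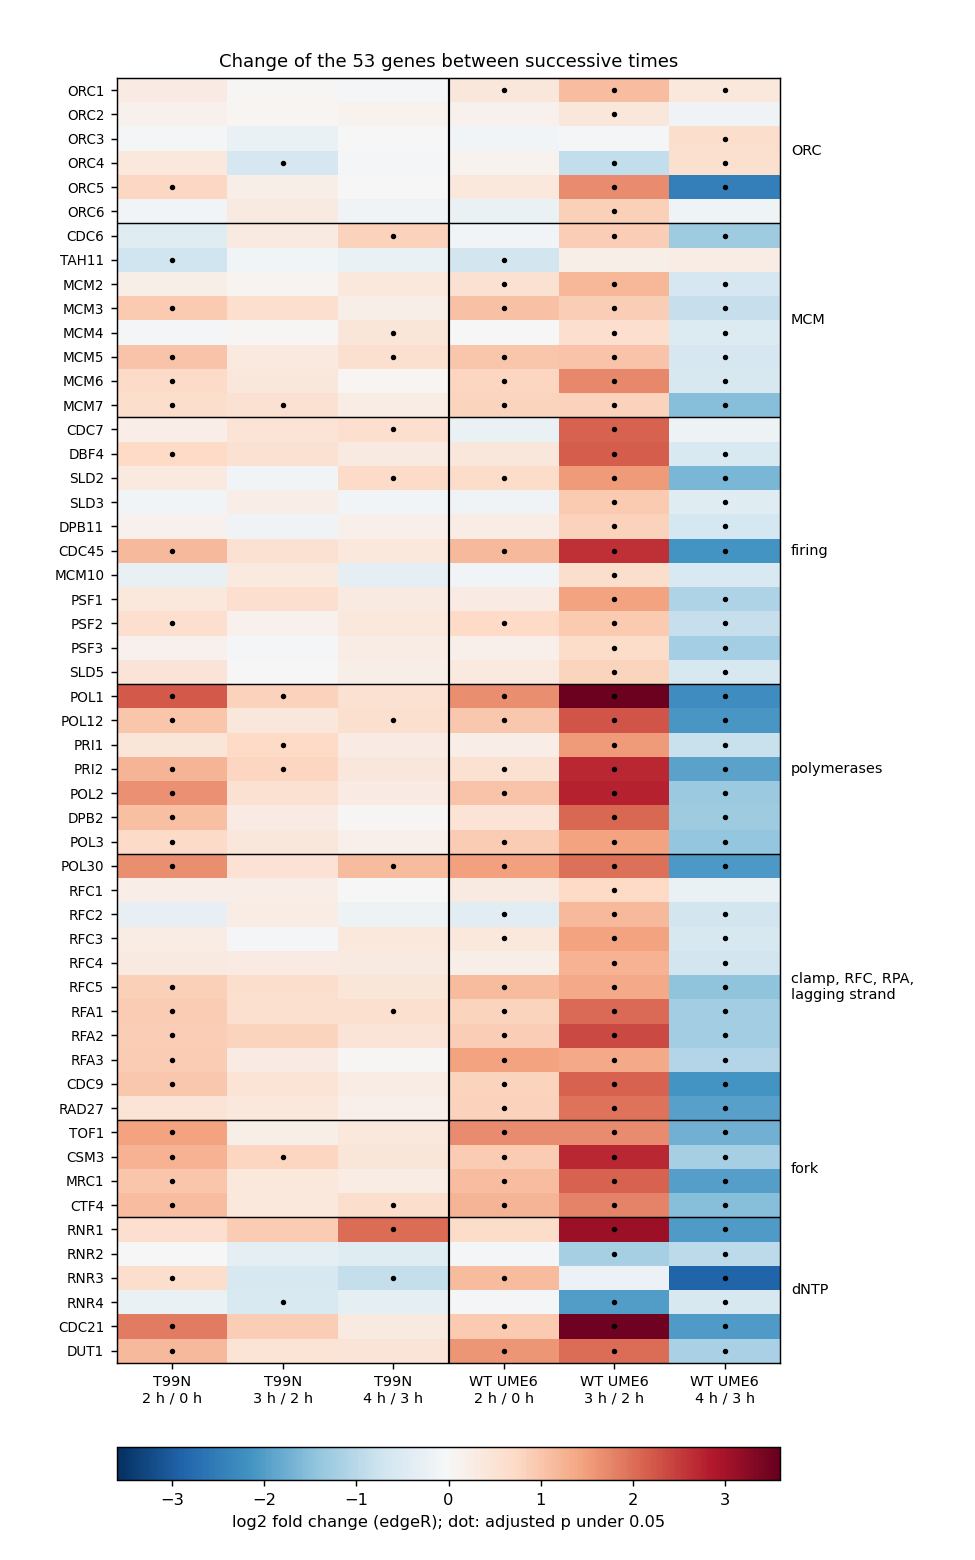
Log2 fold change (edgeR, colour, red for higher at the later time) of each of the 53 genes between successive times in T99N cells (left 3 columns) and wild-type cells (right 3 columns), with genes grouped by role and a dot where the adjusted p is under 0.05. In the wild-type column for 3 h over 2 h 47 genes rise and 3 fall, and in the T99N column for the same step 5 rise and 2 fall.

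Before copper, 29 members rose and 2 fell between 0 h and 2 h in wild-type cells, by edgeR's quasi-likelihood test at an adjusted p under 0.05 (median log2 fold change 0.56, against 0.01 over all 5488 features tested). Of all features, 25.1% rose and 25.0% fell. All 4 fork protection genes rose, led by *TOF1* (log2 fold change 1.70 ± 0.19 SE, adjusted p = 3.39e-07), whose product holds the moving fork together with Csm3. Of the polymerase genes 5 of 7 rose, and *POL1*, the catalytic subunit of polymerase α, rose by 1.68 ± 0.25 on the log2 scale (adjusted p = 1e-05). *TAH11*, the loader of the helicase, fell by 0.66 ± 0.14 (adjusted p = 0.000666), and *RFC2*, a clamp loader subunit, by 0.37 ± 0.14 (adjusted p = 0.028). Only 1 of the 6 ORC genes passed the test in this step.

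Between 2 h and 3 h in wild-type cells 47 members rose and 3 fell (median log2 fold change 1.44, against 0.05 over all features). Of all features, 35.0% rose and 31.2% fell in this step. The rise was at least 2-fold for 34 of the 47. All 11 firing genes, all 7 polymerase and primase genes, all 11 clamp, RPA and lagging-strand genes and all 4 fork protection genes rose. The median log2 fold change was 2.27 for the polymerase group, 1.95 for fork protection, 1.45 for the clamp and RPA group, 0.93 for firing, 0.89 for MCM loading and 0.63 for ORC.

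*POL1* (YNL102W) rose most. It had 5.62, 4.44 and 5.63 RPKM at 0 h in wild-type cells, 19.1, 15.3 and 15.8 at 2 h, 199, 196 and 182 at 3 h, and 43, 41.9 and 36.1 at 4 h. The 3 h libraries stood above all others and the 4 h libraries stayed above those at 2 h. The step to 3 h was 3.52 ± 0.25 on the log2 scale (adjusted p = 9.7e-11). *CDC21* (YOR074C), thymidylate synthase, had 37.3, 40 and 29.3 RPKM at 2 h, 381, 418 and 415 at 3 h and 95, 102 and 100 at 4 h in wild-type cells. Its step was of the same size, 3.51 ± 0.31 (adjusted p = 2.22e-09). *POL2* (YNL262W), the catalytic subunit of polymerase ε, had 20.9, 18.9 and 18.9 RPKM at 2 h, 129, 136 and 137 at 3 h and 54.8, 52.3 and 52.8 at 4 h, a step of 2.77 ± 0.17 (adjusted p = 1.19e-11). *RNR1* (YER070W), the main large subunit of ribonucleotide reductase, had 65.4, 73.3 and 74 RPKM at 2 h, 594, 732 and 462 at 3 h and 174, 158 and 102 at 4 h. It rose by 3.07 ± 0.33 to 3 h (adjusted p = 3.56e-08), and its 3 h libraries spread more widely than those of *POL1*. *POL30* (YBR088C), which encodes PCNA, had 83.2, 90 and 97.6 RPKM at 2 h, 410, 409 and 247 at 3 h and 92.9, 102 and 60.6 at 4 h.

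The subunits of ribonucleotide reductase did not move together. *RNR2* (YJL026W) and *RNR4* (YGR180C) encode the small subunits, and both fell while *RNR1* rose. *RNR2* had 306, 360 and 384 RPKM at 2 h in wild-type cells, 163, 169 and 130 at 3 h and 96.2, 81.3 and 63.2 at 4 h. It fell by 1.19 ± 0.15 to 3 h (adjusted p = 3.52e-07). *RNR4* had 299, 341 and 335 RPKM at 2 h, 77.3, 82.3 and 80.9 at 3 h and 58, 55.5 and 48.7 at 4 h. It fell by 2.02 ± 0.15 to 3 h (adjusted p = 2.35e-10). *RNR3* (YIL066C), the large subunit made after DNA damage, had 34.4, 43.3 and 42.7 RPKM at 2 h, 32, 34.2 and 37.6 at 3 h and 5.75, 4.26 and 3.83 at 4 h, so that its loss fell in the last hour. *RNR1* with *RNR3*, and *RNR2* with *RNR4*, are related in sequence, and how reads common to them were shared out is uncertain.

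Between 3 h and 4 h, which uses the same 3 h libraries as the step before it, 44 members fell and 3 rose (median log2 fold change −1.10, against 0.04 over all features). Of all features, 20.6% rose and 18.1% fell. The 3 that rose were the ORC genes *ORC3* (0.63 ± 0.15), *ORC4* (0.59 ± 0.17) and *ORC1* (0.38 ± 0.15), and these rises were not called when libraries were scaled to total counts, which moved the median of all features by −0.24. With the replicate number as a block, the helicase cofactor *MCM10* fell as well (−0.50, adjusted p = 0.0414). *ORC5* (YNL261W) went the other way, with 37, 26.7 and 30.4 RPKM at 2 h, 135, 92.9 and 78.7 at 3 h and 16.5, 19.2 and 20.4 at 4 h, a last step of −2.45 ± 0.18 (adjusted p = 2.4e-09). It starts 215 bases downstream of *POL2* on the same strand, and in the RNA-seq reads that run on from *POL2* were not separated from its own. In TL-seq of UB14584, its own start-site cluster had 33, 21.1 and 43.8 normalized reads at 4 h in replicates 1, 3 and 5. At 2 h it had 110, 79.3 and 104 (−1.60 ± 0.32, adjusted p = 0.00355 by limma). Its RNA-seq change in that strain was −0.40 ± 0.22 (adjusted p = 0.157 by edgeR), and neither assay sampled UB14584 at 3 h. *RFC5* and *POL30* lie tail to tail, 159 bases apart, and the strand setting of the counting is not given in the sources used here.

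Set against 2 h, at 4 h 24 members were higher and 6 lower in wild-type cells (median log2 fold change 0.33, against 0.03). Of all features, 34.2% were higher and 31.0% lower. The largest rises belonged to the kinase of origin firing, Cdc7-Dbf4, which also acts in meiotic recombination. *CDC7* (YDL017W) had 79.5, 75.5 and 72.3 RPKM at 4 h and 20.5, 16.8 and 21.9 at 2 h, a log2 fold change of 1.94 ± 0.17 (adjusted p = 2.27e-09). Its 3 h level was 89, 91.9 and 78.7 RPKM, and the step from 3 h to 4 h did not pass the test. *DBF4* (YDR052C) had 198, 161 and 244 RPKM at 4 h and 64, 63.6 and 68.9 at 2 h (1.62 ± 0.19, adjusted p = 1.9e-07). *CSM3* (YMR048W) had 97.9, 95.6 and 123 RPKM at 4 h and 40.9, 37.7 and 33.5 at 2 h (1.5 ± 0.2, adjusted p = 1.49e-06). The largest falls were the 3 reductase genes *RNR3* (−3.11 ± 0.22, adjusted p = 1.15e-10), *RNR4* (−2.59 ± 0.16, adjusted p = 9.73e-12) and *RNR2* (−2.12 ± 0.15, adjusted p = 1.15e-10). The other 3 members that were lower were *ORC5* (−0.75 ± 0.17), the helicase subunit *MCM7* (−0.69 ± 0.14) and the GINS subunit *PSF3* (−0.56 ± 0.19).

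These counts depend on how libraries are scaled. The TMM factors were 1.271 to 1.355 in the wild-type libraries at 3 h and 0.706 to 0.976 at 2 h, and scaling to total counts alone moved the median of all features by 0.61 on the log2 scale in the step to 3 h, where 49 members then rose and 2 fell. For 4 h against 2 h it moved the median by 0.37 and gave 35 members higher and 3 lower, so that 92.1% of the calls were higher, against 80% with TMM. Here and below, member counts with total counts stand without the share of all features under that scaling. The same holds, above and below, for counts with DESeq2, a fold of at least 2, a stricter adjusted p, or a replicate block. It also holds where a replicate or library is left out, unless a share is printed beside the count. A shift in such a count was not set against the shift over all features.

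**Figure D2:**
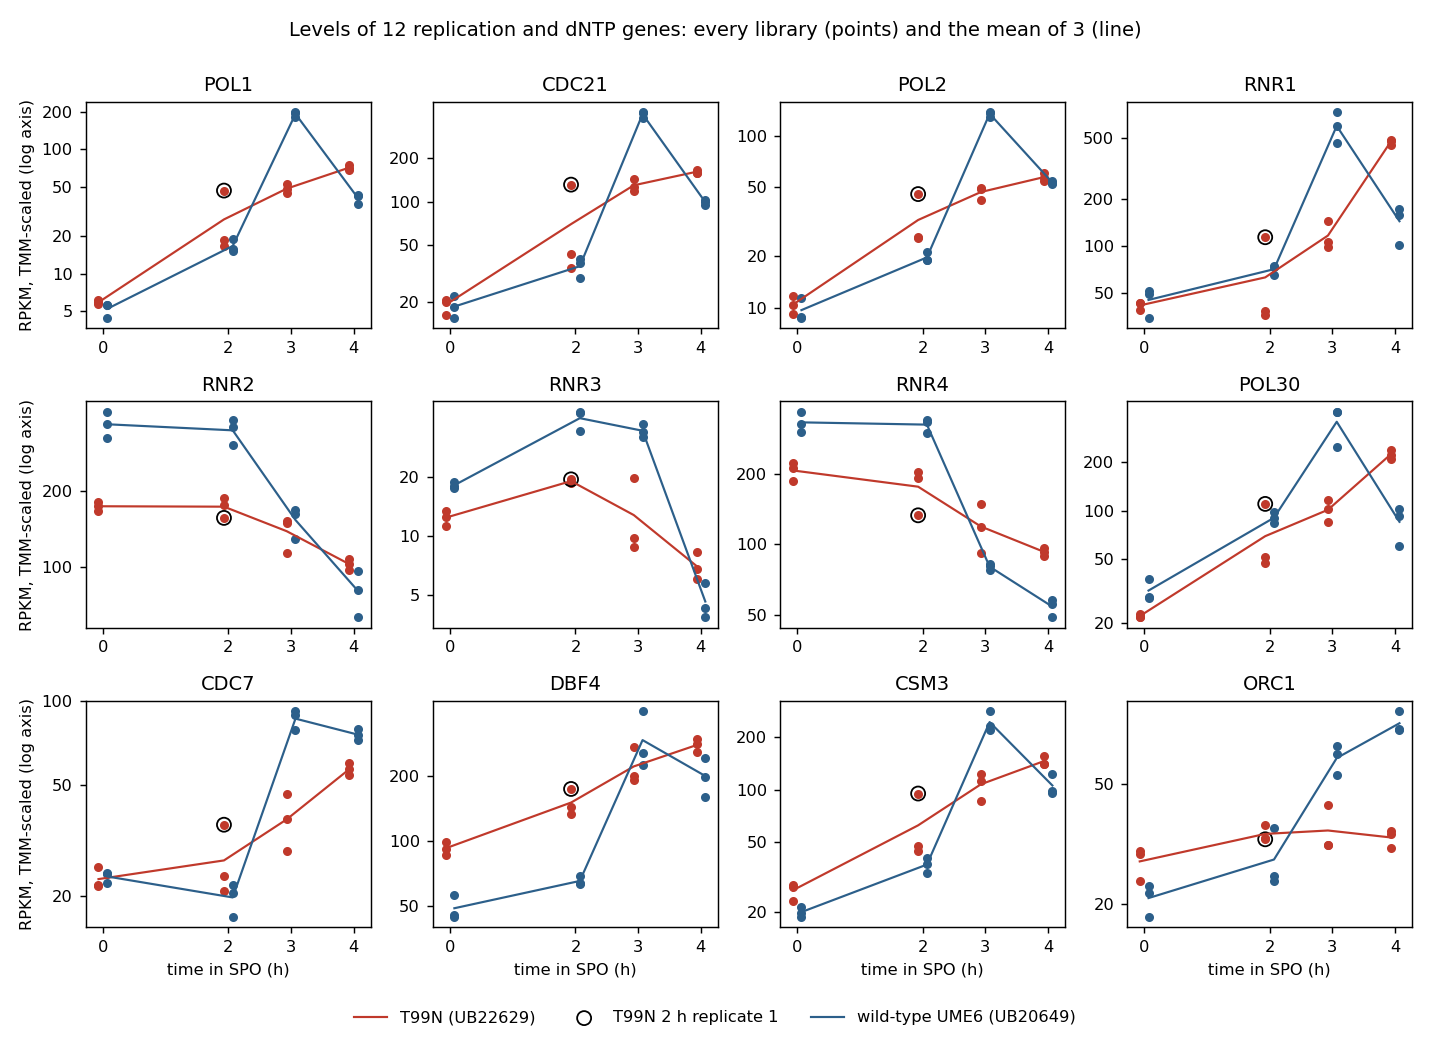
RPKM (TMM-scaled, log axis) of 12 members against time in SPO, with a point for each library, a line through the mean of 3, and T99N cells set beside wild-type cells; the ring marks the library labelled T99N 2 h replicate 1. For POL1 the wild-type libraries stand at 182 to 199 RPKM at 3 h while the T99N libraries stand at 44.4 to 52.6, and RNR2 and RNR4 stand lower at 4 h than at 2 h in both strains.

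In T99N cells the summed level of the same genes climbed more slowly and had no peak at 3 h. The level summed over the 53 genes was 1730 to 1790 RPKM at 0 h, 2210 to 3270 at 2 h, 3110 to 3370 at 3 h and 4320 to 4400 at 4 h, where the 3270 was the library labelled 2 h with high *IME1*. The highest group mean was at 4 h for 41 genes, at 3 h for 5, at 2 h for 2 and at 0 h for 5, counts that were not made over all features. Between 0 h and 2 h, 27 members rose and 1 fell, while 21.8% of all features rose and 20.1% fell. Without the library labelled T99N 2 h replicate 1 it was 25 and 3, beside 21.4% and 20.6% of features.

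Between 2 h and 3 h in T99N cells 5 members rose and 2 fell (median log2 fold change 0.35), beside 1.17% and 3.35% of all features. Those that rose were *POL1* (0.82 ± 0.23), the primase genes *PRI2* (0.78 ± 0.21) and *PRI1* (0.71 ± 0.18), *CSM3* (0.77 ± 0.20) and *MCM7* (0.55 ± 0.14), and those that fell were *ORC4* (−0.61 ± 0.17) and *RNR4* (−0.56 ± 0.15). This count rested on single libraries. Without the library labelled T99N 2 h replicate 1, 31 members rose and 2 fell, beside 12.4% and 11.2% of features, and the 7 members just named had 1.45 for *POL1*, 1.30 for *PRI2*, 1.09 for *PRI1*, 1.21 for *CSM3*, 0.78 for *MCM7*, −0.83 for *ORC4* and −0.73 for *RNR4* on the log2 scale. Without replicate 1 of every group 29 were called. Without replicate 2 or without replicate 3 edgeR called 0, with 3 members under an unadjusted p of 0.05 in each case, against 28 with every library. DESeq2 on every library called 13 higher and 2 lower, and total counts without TMM called 1 higher and 0 lower, with the median of all features moved by 0.19.

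Between 3 h and 4 h in T99N cells 10 members rose and 1 fell (median log2 fold change 0.29), beside 4.99% and 9.24% of features. The fold changes of this step do not compare the 2 h libraries, but its p-values come from the fit over all 24 libraries. *RNR1* rose most, by 2.01 ± 0.31 (adjusted p = 0.000127), and *POL30* rose by 1.14 ± 0.25 (adjusted p = 0.00321). Leaving out replicate 2 left 4 calls and leaving out replicate 3 left 6. Total counts without TMM moved the median of all features by −0.18 and gave 2 higher and 3 lower.

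Set against 2 h, at 4 h 31 members were higher and 4 lower in T99N cells (median log2 fold change 0.56), beside 11.2% and 14.0% of features. Without the library labelled T99N 2 h replicate 1 it was 34 and 4, beside 15.1% and 17.2%. Without replicate 2 of every group 12 members were called, and without replicate 3, 20. *RNR1* had 449, 483 and 480 RPKM at 4 h and 114, 38.3 and 36 at 2 h, with 98.7, 146 and 106 in between at 3 h. All 3 libraries at 4 h were above every earlier T99N library, and the log2 fold change was 2.91 ± 0.33 (adjusted p = 8.8e-06), or 3.66 without the library at 114. *POL30* had 221, 238 and 210 RPKM at 4 h and 110, 47 and 51.2 at 2 h (1.67 ± 0.25, adjusted p = 0.000105), or 2.18 without the high library. *POL1* had 71.2, 74.3 and 68.6 RPKM at 4 h and 46.6, 18.7 and 16.7 at 2 h, where replicate 1 again was the high one. Its change was 1.38 ± 0.24 (adjusted p = 0.000317), or 2.01 without that library, and it lost the call without replicate 2 of every group.

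The reductase genes fell in T99N cells too. *RNR3* had 8.3, 6.01 and 6.74 RPKM at 4 h and 19.5, 18.7 and 19.1 at 2 h (−1.44 ± 0.22, adjusted p = 0.000114), or −1.43 without the library labelled T99N 2 h replicate 1. *RNR4* had 96.6, 92.7 and 89.5 RPKM at 4 h and 133, 193 and 203 at 2 h (−0.92 ± 0.15, adjusted p = 0.000246), or −1.09 without it. *RNR2* had 103, 108 and 97.2 RPKM at 4 h and 157, 176 and 189 at 2 h (−0.76 ± 0.15, adjusted p = 0.000942), a call that was lost without replicate 2 and stood at −0.83 without the library labelled T99N 2 h replicate 1. The fourth member to fall was *ORC4* (−0.68 ± 0.17, or −0.90 without that library). All 4 fork protection genes, 7 of 8 MCM loading genes and 6 of 7 polymerase genes were higher, while *ORC4* was the only call among the 6 ORC genes, and these counts were the same without that library.

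Whether the strains changed differently was tested as an interaction, the T99N change minus the wild-type change. For 4 h against 2 h the interaction was positive for 17 members and negative for 7 (median 0.28, against −0.07 over all features), beside 18.3% and 20.6% of features, so that the positive share exceeded that of all features and the negative share did not. Without the library labelled T99N 2 h replicate 1 it was positive for 30 and negative for 5, beside 18.2% and 18.9%. Total counts without TMM moved the median of all features by −0.36 and gave 7 positive and 12 negative, or 36.8% positive among the calls, against 70.8% with TMM. The shares of all features with total counts are not given, so these counts cannot be set beside them. Without replicate 2 of every group 10 members were called, and without replicate 3, 15.

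The positive differences were led by *RNR1* (1.88 ± 0.43, adjusted p = 0.00168), which changed by 2.91 in T99N cells and 1.03 in wild-type cells. This call was lost without replicate 2 (1.65) and without replicate 3 (1.36), and the value without the library labelled T99N 2 h replicate 1 was 2.64. *POL30* followed (1.75 ± 0.35, adjusted p = 0.000471, or 2.26 without that library), and at 4 h it stood at 221, 238 and 210 RPKM in T99N cells and at 92.9, 102 and 60.6 in wild-type cells. *RNR4* (1.67 ± 0.21, adjusted p = 3.49e-06), *RNR3* (1.66 ± 0.30) and *RNR2* (1.36) fell in both strains, and fell less in T99N cells. They were already lower in T99N cells at 2 h, before copper, with log2 differences from wild-type cells of −0.89, −1.07 and −1.01. These were −0.72, −1.08 and −0.94 without the library labelled T99N 2 h replicate 1. The part of this lower start in the interaction was not tested. Without that library the 3 interactions were 1.5 for *RNR4*, 1.68 for *RNR3* and 1.29 for *RNR2*. The negative differences were led by *ORC1* (YML065W), the largest ORC subunit, which had 30.7, 34.2 and 34.9 RPKM in T99N cells at 4 h, against 75.8, 75 and 86.6 in wild-type cells. At 2 h it had 32.8, 36.5 and 33.2 RPKM in T99N cells and 35.7, 23.9 and 24.8 in wild-type cells, and the interaction was −1.53 ± 0.21 (adjusted p = 8.86e-06), or −1.56 without the library labelled T99N 2 h replicate 1. *CDC7* had 54.3, 57 and 59.8 RPKM in T99N cells at 4 h and 79.5, 75.5 and 72.3 in wild-type cells (interaction −0.86 ± 0.24, adjusted p = 0.00597), lost the call without replicate 1 of every group (−0.48), and kept it without that library alone (−0.59, adjusted p = 0.0282). *ORC3* (YLL004W) had 9.67, 7.59 and 9.52 RPKM in T99N cells at 4 h and 19.7, 22.9 and 18 in wild-type cells (−0.81 ± 0.23, adjusted p = 0.00771), and lost it without replicate 2 (−0.57). Without that library the value for *ORC3* was −0.66 (adjusted p = 0.0292).

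The 3 h libraries separated the strains further. These interactions were added after the 3 h values had been seen. For 3 h against 2 h the interaction was positive for 2 members and negative for 40 (median −1.05), where 21.9% of all features were positive and 21.9% negative. The numbers were 2 and 34, beside 21.9% and 20.6%, without the library labelled T99N 2 h replicate 1. *POL1* had 44.4, 47.9 and 52.6 RPKM in T99N cells at 3 h and 199, 196 and 182 in wild-type cells, and its interaction was −2.71 ± 0.33 (adjusted p = 1.11e-06), or −2.07 without the library labelled T99N 2 h replicate 1. *CDC21* had 119, 143 and 127 RPKM in T99N cells at 3 h and 381, 418 and 415 in wild-type cells (−2.62 ± 0.41, adjusted p = 2.22e-05), with −1.77 without that library. *POL2* had 42.4, 48.7 and 49.8 RPKM in T99N cells at 3 h and 129, 136 and 137 in wild-type cells (−2.24 ± 0.23, adjusted p = 1.04e-07), with −1.90 without it. For these 3 genes the strains did not overlap at 3 h. The 2 positive members were *RNR4* (1.45 ± 0.21, adjusted p = 1.05e-05) and *RNR2* (0.86 ± 0.21, adjusted p = 0.00184), and *RNR2* lost its call without replicate 2 (0.85) and with total counts (0.43), which moved the median of all features by −0.43. The values were 1.29 for *RNR4* and 0.79 for *RNR2* without the library labelled T99N 2 h replicate 1. For 4 h against 3 h, which shares the 3 h libraries, 41 members were positive and 1 negative (median 1.35), beside 11.2% and 14.8% of features. *RNR1* had the highest value, 4.05 ± 0.44 (adjusted p = 1.2e-06).

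Levels were also set against each other directly. At 2 h, 16 members were higher and 7 lower in T99N cells than in wild-type cells, beside 21.0% and 20.9% of features. Without the library labelled T99N 2 h replicate 1 the split turned round, with 8 higher and 17 lower, beside 20.2% and 22.8%. With total counts, which moved the median of all features by 0.15, it was 17 and 4, and without replicate 2 of every group 11 were called. At 4 h, 26 members were higher and 7 lower in T99N cells (median log2 difference 0.46), beside 22.5% and 30.2% of features, and with total counts, which moved the median by −0.21, 17 and 7. *MCM7* was the highest of them, with 149, 145 and 133 RPKM in T99N cells and 44.7, 42.1 and 40.9 in wild-type cells (1.74 ± 0.14, adjusted p = 3.98e-09). *TAH11* was the lowest, with 9.51, 9.78 and 8.86 RPKM in T99N cells and 22.8, 25.2 and 21.3 in wild-type cells (−1.30 ± 0.15, adjusted p = 4.28e-07). Beside these differences, the summed level of the G1 cyclin genes *CLN1*, *CLN2* and *PCL1*, which mark vegetative G1/S cells, was 128 to 142 RPKM in T99N cells at 4 h and 47.1 to 53.9 in wild-type cells, and its part in the result was not tested.

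Members with and without MCB letters can be set side by side as a description. Between 2 h and 3 h in wild-type cells, 22 of the 23 members with a match rose (median log2 fold change 2.06). Of the 30 without a match 25 rose and 3 fell (median 0.93), beside 35.0% and 31.2% of all features. Between 3 h and 4 h, 23 of 23 with a match fell in wild-type cells (median −1.64), and of those without 21 fell and 3 rose (median −0.60). Of all features, 18.1% fell and 20.6% rose in that step. In T99N cells at 4 h against 2 h, 19 of 23 with a match were higher and 1 lower (median 0.89), and 12 of 30 without were higher and 3 lower (median 0.29). The shares of all features were 11.2% higher and 14.0% lower. Leaving out the library labelled T99N 2 h replicate 1, 20 of 23 with a match were higher and 1 lower (median 1.16), and 14 of 30 without a match were higher and 3 lower (median 0.42). The shares of all features were then 15.1% and 17.2%. The member with a match that did not pass the test to 3 h was *RNR3*, and *RNR1*, which rose by 3.07, holds only the SCB letters shown above.

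In the strain with untagged Ume6, the RNA-seq libraries of UB14584 held 3124472 to 4845107 counts. At 4 h against 2 h, 25 members were higher and 4 lower (median log2 fold change 0.52, against −0.02 over 5377 features), beside 26.6% and 26.8% of features. *CDC7* led again, with 166 and 142 RPKM at 4 h and 32 and 31.8 at 2 h (2.27 ± 0.14, adjusted p = 0.000129). *CDC21* had 281 and 192 RPKM at 4 h and 44.6 and 79.2 at 2 h (1.93 ± 0.30, adjusted p = 0.00294), and *CSM3* had 168 and 144 against 34.8 and 49.3 (1.89 ± 0.20, adjusted p = 0.000645). The members that were lower were *RNR2*, with 32.4 and 40 RPKM at 4 h and 159 and 338 at 2 h (−2.78 ± 0.37, adjusted p = 0.00153), *RNR4* (−2.40 ± 0.28), *RNR3* (−1.78 ± 0.25) and *MCM7* (−1.0). *RNR1* did not pass the test, with 129 and 94 RPKM at 4 h and 62.5 and 147 at 2 h (adjusted p = 0.862). Without the 4 h library of replicate 4 the number called was 18.

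TL-seq gave the start sites of 51 members, each with the cluster nearest the coding sequence. *POL1* and *PSF3* were not analysed there. At 4 h against 2 h, 17 of these clusters were higher and 10 lower by limma at an adjusted p under 0.1 (median log2 fold change 0.37, against 0.03 over 5114 clusters), beside 24.6% and 23.8% of clusters. The libraries held 3195012 to 8243174 reads in gene clusters. In replicates 1, 3 and 5, *CDC7* had 270, 301 and 269 normalized reads at 4 h and 59.8, 51.1 and 66.4 at 2 h (2.23 ± 0.22, adjusted p = 5.26e-05). *POL2* had 358, 268 and 340 at 4 h and 75, 97.6 and 91.3 at 2 h (1.86 ± 0.23, adjusted p = 0.000196). *CSM3* had 267, 320 and 264 at 4 h and 125, 77.5 and 97.2 at 2 h (1.52 ± 0.24, adjusted p = 0.000965). For all 3 genes every 4 h library was above every 2 h library.

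The reductase genes had the largest falls among start sites too. *RNR2* had 537, 414 and 433 normalized reads at 4 h and 2370, 1590 and 2590 at 2 h (−2.22 ± 0.25, adjusted p = 0.000122). *RNR4* had 197, 108 and 96 at 4 h and 634, 408 and 765 at 2 h (−2.19 ± 0.33, adjusted p = 0.000722). *RNR3* had 0.87, 0.704 and 0 at 4 h and 19.4, 5.47 and 33.2 at 2 h, few reads in every 4 h library, and its change of −3.49 ± 0.82 (adjusted p = 0.00776) became −1.95 with a pseudocount of 5. *RNR1* had 434, 861 and 537 at 4 h and 1410, 418 and 778 at 2 h, which overlap (adjusted p = 0.491). Without replicate 1 the number of clusters called was 17.

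**Figure D3:**
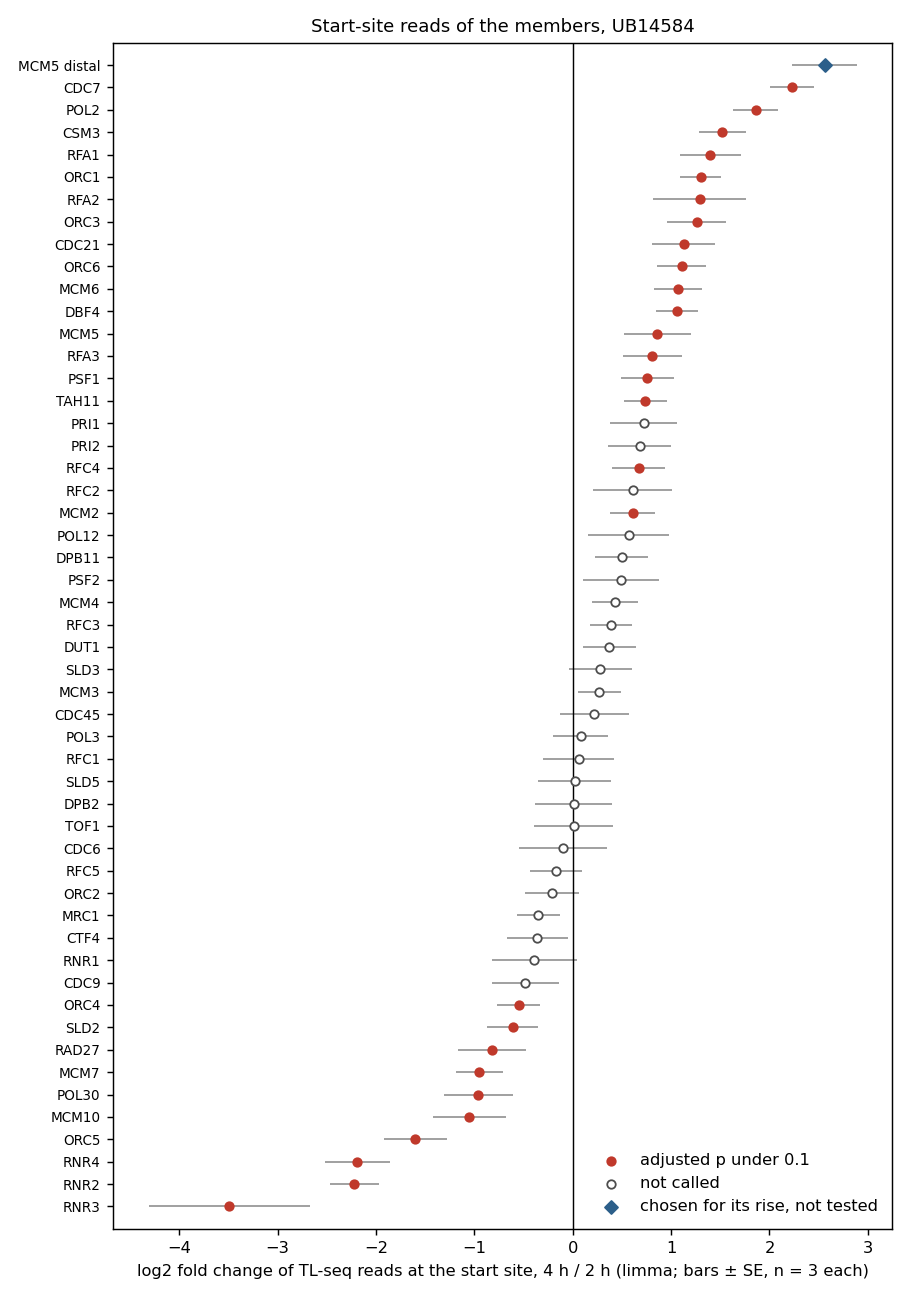
Log2 fold change of TL-seq normalized reads (4 h over 2 h, replicates 1, 3 and 5, limma, bars are 1 SE) for the cluster nearest the coding sequence of 51 members, ordered by size, with clusters past an adjusted p of 0.1 filled in red, and for the distal cluster of MCM5 (diamond), which the study chose for its rise. CDC7 stands at 2.23 and RNR2, RNR4 and RNR3 stand at −2.22, −2.19 and −3.49.

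*MCM5* (YLR274W) has 2 start-site clusters. In SK1 coordinates the coding sequence is chrXII:651587-653914 on the plus strand, the CDS-proximal cluster is chrXII:651543-651586 and the distal cluster is chrXII:650910-650955, with midpoints 22 and 654 bases before the start codon. The study chose the distal cluster for its rise in these libraries, so its values are a description. It had 118, 78.9 and 92.6 normalized reads at 4 h in replicates 1, 3 and 5 and 21.9, 13.7 and 11.9 at 2 h, a log2 fold change of 2.56 ± 0.33. The proximal cluster did not fall. It had 305, 295 and 204 at 4 h and 213, 166 and 85.4 at 2 h. The lowest 4 h library was below the highest at 2 h, but within each replicate number 4 h was above 2 h. In the limma test, which did not pair the numbers, its change of 0.86 ± 0.34 had an adjusted p of 0.0708, past the threshold of 0.1. The other TL-seq p-values printed here are unpaired too, although these numbers were read as a pairing. A p-value with the replicate block is not given for this cluster. That call was lost without replicate 1 (1.04) and without replicate 3 (0.88), and it would not pass at 0.05. The distal cluster made up 27.9%, 21.1% and 31.2% of both at 4 h and 9.32%, 7.61% and 12.2% at 2 h. In the table of replicates 4 and 5, of which 5 is also among the libraries above, the distal cluster had 35.6 and 32.8 at 4 h and 11.7 and 2.58 at 2 h. In this table the proximal one had 117 and 100 at 4 h and 43.5 and 40.7 at 2 h (1.34 ± 0.27 by limma, adjusted p = 0.0143). There the distal share was 23.4% at 4 h and 21.2% at 2 h in replicate 4, and 24.7% at 4 h and 5.97% at 2 h in replicate 5, so that the share hardly differed between the times in replicate 4.

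**Figure D4:**
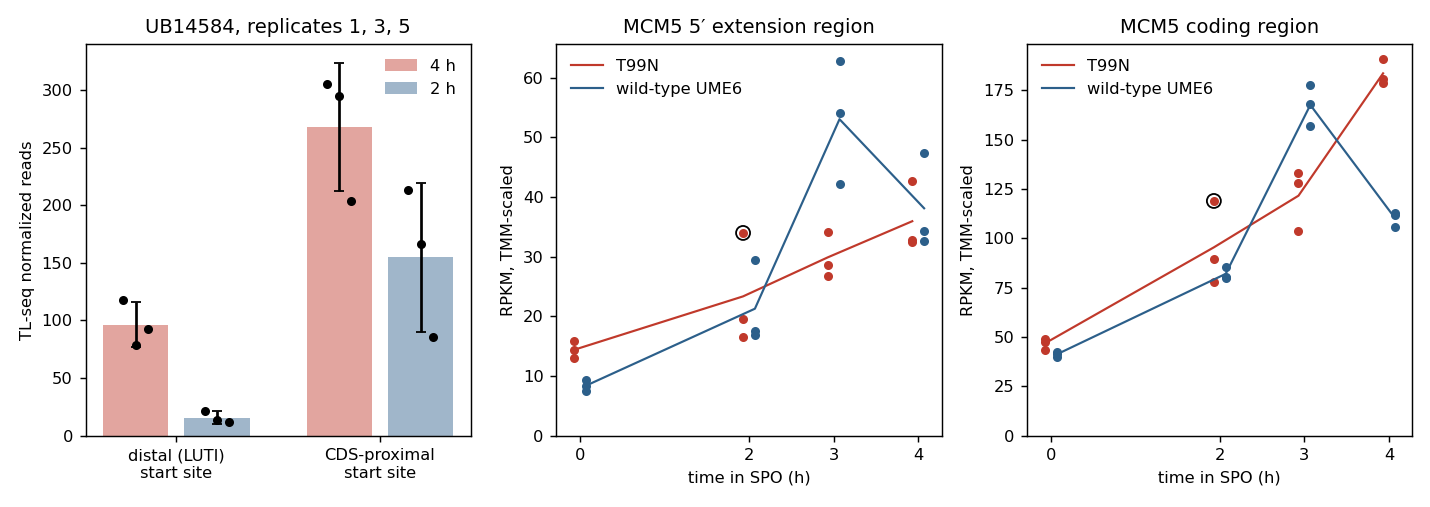
MCM5 in TL-seq and RNA-seq, with normalized reads of the distal and the CDS-proximal cluster at 4 h and 2 h in replicates 1, 3 and 5, and RPKM of the coding sequence and of the extension region by time in T99N and wild-type cells (points are libraries, bars and lines are means of 3, error bars are the SD, and the ring is the library labelled T99N 2 h replicate 1). The distal cluster lies at 78.9 to 118 at 4 h and 11.9 to 21.9 at 2 h. The proximal cluster overlaps between the times, and within each replicate number 4 h is above 2 h.

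In the RNA-seq the region between the start sites, chrXII:650924-651553, was counted apart from the coding sequence. In T99N cells this extension had 34, 19.6 and 16.5 RPKM at 2 h, 28.7, 34.2 and 26.8 at 3 h and 42.7, 32.8 and 32.4 at 4 h. In wild-type cells it had 16.9, 17.6 and 29.4 RPKM at 2 h, 42.2, 62.9 and 54.1 at 3 h and 47.4, 32.6 and 34.4 at 4 h. It rose before copper too, between 0 h and 2 h, by 1.34 ± 0.26 in wild-type cells (adjusted p = 0.000254). In T99N cells that step was 0.71 ± 0.27 (adjusted p = 0.0365), or 0.32 without the library labelled T99N 2 h replicate 1 (adjusted p = 0.352). From 2 h the extension rose by 1.32 ± 0.24 to 3 h in wild-type cells (adjusted p = 6.18e-05) and was 0.85 ± 0.24 above 2 h at 4 h (adjusted p = 0.00433). In T99N cells the 4 h change was 0.61 ± 0.25 (adjusted p = 0.0777), and the interaction was −0.23 ± 0.35 (adjusted p = 0.629), so that a difference between the strains was not shown for 4 h against 2 h. For 3 h against 2 h the interaction was −0.97 ± 0.35 (adjusted p = 0.0278). These values moved with the library labelled T99N 2 h replicate 1. Without it the 4 h change in T99N cells was 1.01 (adjusted p = 0.0049), the interaction for 4 h against 2 h was 0.16 (adjusted p = 0.729), and that for 3 h against 2 h was −0.58 and was not called (adjusted p = 0.164).

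The *MCM5* coding sequence had 119, 78 and 89.5 RPKM at 2 h, 104, 133 and 128 at 3 h and 179, 181 and 191 at 4 h in T99N cells. In wild-type cells it had 80.6, 80.2 and 85.4 RPKM at 2 h, 168, 178 and 157 at 3 h and 113, 112 and 106 at 4 h. At 4 h it was 0.74 ± 0.12 higher in T99N cells on the log2 scale (adjusted p = 3.23e-05), and the interaction for 4 h against 2 h was 0.52 ± 0.17 (adjusted p = 0.02), or 0.71 without the library labelled T99N 2 h replicate 1. In UB14584 it had 156 and 144 RPKM at 4 h and 59.9 and 80.3 at 2 h (1.10 ± 0.18, adjusted p = 0.00333). Reads in the coding sequence come from both the long and the short transcript and were not split between them.

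Ume6 in saturated cultures was near the start sites of few members. A member was counted where a summit enriched over 4-fold above input was no further than 300 bp from the cluster midpoint in at least 2 of 3 replicates. This held for 5 of 51 members (9.80%), *MCM3*, *MCM5*, *MCM6*, *POL2* and *RNR3*, and for 713 of 5037 genes (14.2%). The summits at *MCM5* lay 170, 192 and 184 bases upstream of the proximal midpoint, with fold enrichments of 3.11, 4.97 and 4.91. At the distal cluster of *MCM5*, where the LUTI starts, summits lay 126 and 102 bases upstream of the midpoint in replicates 2 and 3, with fold enrichments of 2.66 and 2.73, under the 4-fold limit. At *POL2* the summits lay 288 and 298 bases downstream of the midpoint, in replicates 1 and 2. Not counted by a few bases were *MCM7*, with summits 303, 301 and 288 bases upstream, of which only the last is within the window, and *RNR2*, with summits 306, 306 and 312 bases upstream. Requiring both remaining replicates, the count was 3 without replicate 1, 2 without replicate 2 and 2 without replicate 3. *MCM5* is the only one of the 5 with URS1 letters in its window above.

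Another 23 genes of the same pathways, fixed as a list beside the members, were counted in the same comparisons. They hold further polymerase subunits, nucleotide kinases, regulators of the reductase and the subunits of MBF and SBF. Between 2 h and 3 h in wild-type cells 18 rose and 1 fell, beside 35.0% and 31.2% of all features, with the largest rise in *NRM1*, a corepressor of MBF targets (2.34 ± 0.18, adjusted p = 1.86e-10), and the fall in *SLD7*, a partner of Sld3 (−0.69 ± 0.15, adjusted p = 0.000483). At 4 h against 2 h in wild-type cells 9 were higher and 2 lower, beside 34.2% and 31.0%. *DIF1*, which regulates where the small reductase subunits are in the cell, had 200, 237 and 169 RPKM at 4 h and 32.4, 61.6 and 31.6 at 2 h in wild-type cells (2.26 ± 0.19, adjusted p = 1.4e-09). In T99N cells it had 41.1, 40 and 38.9 RPKM at 4 h and 43.8, 33.9 and 36.3 at 2 h, and the interaction was −2.20 ± 0.28 (adjusted p = 2.41e-06), or −2.08 without the library labelled T99N 2 h replicate 1. In T99N cells 10 of the 23 were higher at 4 h than at 2 h and 0 lower by edgeR, beside 11.2% and 14.0% of features, led by the polymerase δ subunit *POL32* (1.37 ± 0.29, adjusted p = 0.00171). Without that library 11 were higher and 1 lower, beside 15.1% and 17.2%, and *POL32* stood at 2.18. The interaction for 4 h against 2 h was positive for 4 and negative for 4, beside 18.3% and 20.6% of features, so that neither share of these genes exceeded that of all features. Without that library it was positive for 6 and negative for 4, beside 18.2% and 18.9%. In UB14584 11 were higher and 1 lower at 4 h, beside 26.6% and 26.8%.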

How the data were processed

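RNA-seq was made with a directional mRNA kit. The authors ran salmon on SK1 coding sequences and, for loci with a 5′ extension, on the extension region, and deposited estimated counts, of which 96.79% were whole within 1e-06 read here, and they were rounded before testing. The table of UB14584 also holds the TPM that salmon gave, which the authors deposited beside the estimated counts. No TPM value is given in this report, and its levels are RPKM computed from the counts. For TL-seq the authors clustered start sites and deposited a signal of reads divided by size factors. Of these values 100% came back as whole reads within 0.01 read, and edgeR on them called 26 member clusters, against 27 with limma. For Ume6 the authors deposited peaks with a fold enrichment over input, called per replicate after down-sampling.

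Counts of UB22629 and UB20649 (5498 features, of which 74 are extension regions) were tested in 1 fit over 24 libraries as 8 groups with edgeR 4.0.16 (TMM, default filter, quasi-likelihood) in R 4.3.3, and those of UB14584 in a fit of their own. TL-seq was tested with limma 3.58.1 with a trend on log2 of the value plus 1, with no filter. The Benjamini-Hochberg adjustment ran over every feature or cluster in each fit. In the RNA-seq, same-numbered libraries correlated at over 0.1 in 3 of 3 pairs only for 4 h against 3 h in wild-type cells, among the comparisons made within a strain (0.389 to 0.824), which was read as a pairing there; elsewhere at least 1 pair of 3 did not, and the numbers were not taken to pair the samples. In TL-seq the deviations of same-numbered libraries correlated at 0.159 to 0.382 in 3 of 3 pairs, which was read as a pairing of these numbers, and the replicate block called 30 member clusters. DESeq2 1.42.0 was an alternative. Methods were tested on simulated data. Figures and sequence counts used Python 3.11.15, pandas 2.3.3, numpy 2.4.6 and matplotlib 3.10.9.

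Named genes were *MCM5* and, in each main comparison, the 3 members with the largest called rise and the 3 with the largest called fall; others named by role or as the extremes of a comparison were chosen after their values were seen. The members, lists, tests and alternatives were chosen with earlier results of these data known. Promoter letters were read from S288C R64, since a table of promoters was not used here, and symbols of 53 of 53 members matched RefSeq. Positions in SK1 and in R64 were never mixed. The precision that depth gives is set by the read totals in the report; peak lists hold none. The authors' own fold changes and p-values, a table with 12 columns of normalized counts, and the nucleosome, histone and nanopore data were not used here.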

Additional observations from a re-analysis of the deposited data

Results flagged for a closer look

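Effects that differed between T99N and wild-type cells in a test of the difference itself are gathered here as values. Each value is the T99N change minus the wild-type change, with its sign, so a positive value can be a smaller fall, as for *RNR4*. For 4 h against 2 h it was positive for 17 members and negative for 7, beside 18.3% and 20.6% of all features. The largest were *RNR1* (1.88), *POL30* (1.75) and *RNR4* (1.67), and the lowest were *ORC1* (−1.53), *CDC7* (−0.86) and *ORC3* (−0.81), on the log2 scale. For 3 h against 2 h it was positive for 2 members, *RNR4* (1.45) and *RNR2* (0.86), beside 21.9% of features. It was negative for 40, beside 21.9% of features, led by *POL1* (−2.71), *CDC21* (−2.62) and *POL2* (−2.24). For 4 h against 3 h it was positive for 41 and negative for 1, beside 11.2% and 14.8%. The tests at 2 h use the library labelled T99N 2 h replicate 1, which is closest to T99N 3 h replicate 1 and whose label may be wrong, and each value without it stands beside its comparison above.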

How the results depend on the processing

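Over all alternatives to the counts of called members and to the *MCM5* and Ume6 values, 144 of 184 values kept their direction and stayed within 1.5 times or on the same side of the threshold. Over the named genes 304 of 317 did, 13 lost the call, and no value changed sign. A fold of at least 2 left 12 calls in wild-type cells for 2 h against 0 h, 28 for 4 h against 3 h and 13 for 4 h against 2 h. In T99N cells it left 12 for 2 h against 0 h, 0 for 3 h against 2 h, 2 for 4 h against 3 h and 14 for 4 h against 2 h, and it left 9 interactions for 4 h against 2 h and 4 and 13 strain differences at 2 h and 4 h. This follows from the threshold itself. The counts in this section stand without the share of all features under the same setting. An adjusted p under 0.01 left 0 calls in T99N cells for 3 h against 2 h, 4 for 4 h against 3 h, 14 interactions for 4 h against 2 h and 13 strain differences at 2 h. For 3 h against 2 h in T99N cells, edgeR had 28 members under an unadjusted p of 0.05. Total counts without TMM gave 1 call in T99N cells for 3 h against 2 h and 5 for 4 h against 3 h, and DESeq2 gave 15 for 3 h against 2 h; the cause was not tested.

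Leaving out a replicate or a library gave 0 to 33 calls in T99N cells for 3 h against 2 h, 4 to 11 for 4 h against 3 h and 12 to 38 for 4 h against 2 h. It gave 10 to 35 interactions for 4 h against 2 h, 11 to 25 strain differences at 2 h, 18 to 35 calls in UB14584 RNA and 17 to 28 in TL-seq. For the proximal *MCM5* cluster it gave 0.67 to 1.04, and at an adjusted p under 0.05 its 0.86 was not called. In UB14584 RNA, leaving out a replicate number leaves 1 library against 1, so that no test was run, and single libraries were left out instead, an alternative chosen after seeing the data. The members near a Ume6 peak numbered 2 within 150 bp, 7 within 500 bp, 8 with any called peak, 1 with a fold enrichment over 8, 1 in all 3 replicates, and 2 to 3 when a replicate was left out.

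With a replicate block, which outside wild-type 4 h against 3 h is a hint from the numbers and not from the design, wild-type cells had 34, 50, 48 and 33 calls (2 h against 0 h, 3 h against 2 h, 4 h against 3 h, 4 h against 2 h), T99N cells had 29, 10, 13 and 38, the interaction for 4 h against 2 h had 28, and UB14584 RNA had 31; same-numbered libraries correlated at −0.09 to 0.824 in wild-type cells and −0.321 to 0.296 in T99N cells. No count in the block fits moved by over 1.5 times, and in wild-type 4 h against 3 h the block changed the call of *MCM10* and of no other member.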
